A study of Danio rerio with 18 samples.

Results

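The response of the zebrafish heart to rapamycin was compared between ventricles expressing GFP-HRAS and ventricles expressing RFP. The quantity tested was the rapamycin effect in GFP-HRAS minus the rapamycin effect in RFP, which is the interaction of transgene and drug. It was tested in every gene that passed an expression filter, 16044 of the 32520 genes counted, across 12 libraries in 4 groups of 3. All fish were adult, all ventricles were uninjured, and all carried cmcl2:Gal4-ERT2, as the labels spell the driver, with either UAS:RFP or UAS:GFP-HRAS. All received 4 pulses of 2.5 uM 4-OHT (4-hydroxytamoxifen). Each line was given 0.05% DMSO, the vehicle, or 0.5 uM rapamycin over 16 days, and each group is named by its transgene and medium, as in RFP DMSO or GFP-HRAS rapamycin. The driver name and the labels place the transgene under a promoter of cardiomyocytes, so the other cell types of the ventricle were profiled without being the intended site of expression. Whether each library is 1 animal or a pool is not stated in the labels, so every p-value measures only the spread between these libraries.

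HRAS is a small GTPase that, when active, signals through the RAF, MEK and ERK kinases and through phosphoinositide 3-kinase. Rapamycin binds the protein FKBP12 and the complex inhibits TORC1, the TOR kinase complex that promotes translation and growth and lies downstream of phosphoinositide 3-kinase. Rapamycin is also used in mammals to dampen the proliferation of lymphocytes, so a heart that carries many immune cells can respond in more than its muscle. In whole ventricles, fewer cells of a type and less RNA per cell cannot be told apart.

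Levels are given as CPM, counts scaled to a common library size, after TMM scaling of the library sizes, and effects as log2 fold changes ± SE from edgeR. An interaction of -1 means that rapamycin divided by DMSO was 2-fold lower in GFP-HRAS than in RFP. The same number is the change that rapamycin brought to the difference between the lines. A gene was called at a Benjamini-Hochberg adjusted p under 0.05 over all genes tested. Library totals ran from 15861618 to 19695947 counts. Along principal component 1 of the most variable genes, with 74.6% of their variance, the libraries split by line, with the 6 RFP libraries at -54.8 to -43.8 and those of GFP-HRAS DMSO at 59.8 to 79.4. GFP-HRAS rapamycin replicates 1 and 2 lay at 51.2 and 40.7, and replicate 3, at -5.42, was separated from both. The cardiomyocyte marker MYL7 was present at 3576 to 15070 CPM in every library. Of the annotated HRAS genes, ENSDARG00000098497 stood at 6.19, 8.31 and 7.72 CPM in GFP-HRAS DMSO and 8.70, 7.37 and 3.65 in GFP-HRAS rapamycin, against 1.34 to 3.15 in the 6 RFP libraries. Its interaction was -0.54 ± 0.522 (edgeR, adjusted p = 0.676). The other, ENSDARG00000005651, stood at 8.70, 3.81 and 5.34 CPM in GFP-HRAS DMSO and 8.50, 10.4 and 12.8 in GFP-HRAS rapamycin, against 15.1 to 25.5 in the RFP libraries, with an interaction of 0.60 ± 0.415 (adjusted p = 0.541). Whether reads of the transgene are counted in either gene is not given in the sources used here, so these levels are no measure of the transgene.

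At the threshold, edgeR called 8 genes for the interaction, 0.0499% of those tested, with 1 higher (0.00623%) and 7 lower (0.0436%). Unadjusted, 2303 genes (14.4%) had a p under 0.05, 1097 higher (6.84%) and 1206 lower (7.52%). Other tools gave other numbers. DESeq2 called 510 genes (3.18%), of which 172 were higher (1.07%) and 338 lower (2.11%), and limma-voom with quality weights called 1157 (7.21%), of which 598 were higher (3.73%) and 559 lower (3.48%). These lists shared 410 genes, 80.4% of the DESeq2 list and 35.4% of the voom list, and both held all 8 genes called by edgeR. Limma-voom without weights called 0 genes, and so did edgeR with robust dispersions, 2 settings chosen after seeing the data. The adjusted p of the 8 genes was 0.0485 in every case, just under the threshold, and the count moved with single libraries. It was 0 without replicate 2 or 3 of RFP DMSO, replicate 2 or 3 of RFP rapamycin, or replicate 2 of GFP-HRAS DMSO or of GFP-HRAS rapamycin. Leaving out RFP DMSO replicate 1 gave 81, and RFP rapamycin replicate 1 gave 1. For GFP-HRAS rapamycin the count was 9 with replicate 1 left out and 7 with replicate 3 left out. Leaving out GFP-HRAS DMSO gave 19 for replicate 1 and 31 for replicate 3. The direction of the 8 genes was the same in all 21 alternative fits. Those fits reuse the libraries from which the genes were called, so the shared direction is no independent support.

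**Figure D1:**
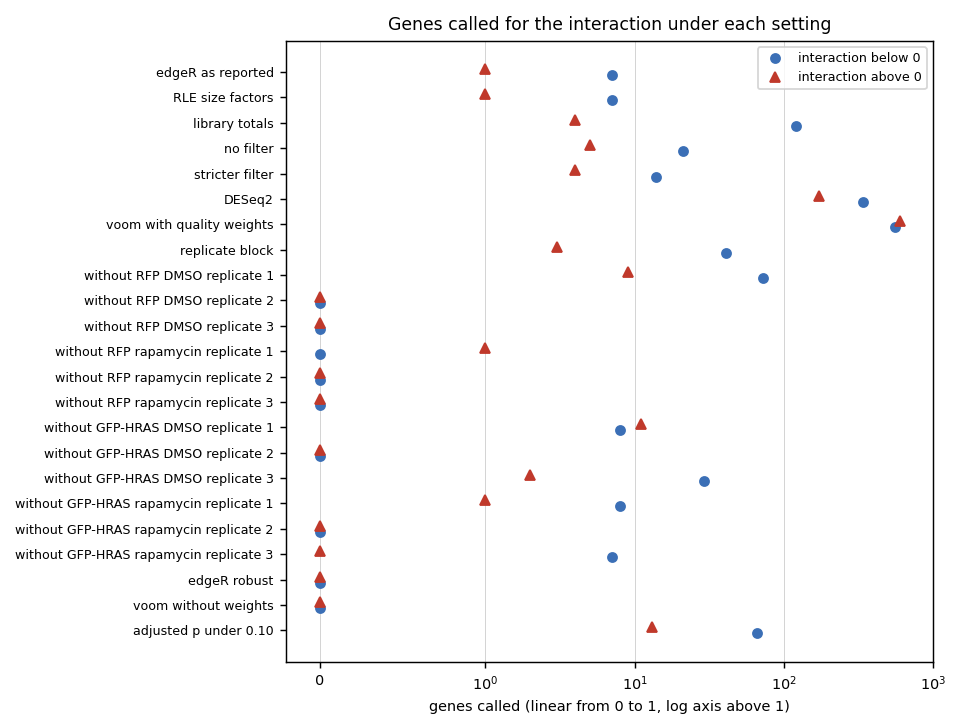
Number of genes called for the interaction (x axis, linear up to 1 and logarithmic above) under each setting (y axis), with genes of negative interaction as circles and of positive interaction as triangles. The edgeR fit as reported called 7 and 1; the extremes are 0 in several fits and 559 and 598 with voom quality weights.

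Of the 8 called genes, 4 have known roles in immune cells (ciita, UNC93B1, CCR8 and PIK3CD), and each was highest in GFP-HRAS DMSO. The genes were called from these same values, so the separation of groups described for them is partly built in. Over all 16044 genes, edgeR called 3991 higher in GFP-HRAS DMSO than in RFP DMSO. The class II transactivator ciita, the switch for transcription of class II antigen presentation genes, stood at 2.08, 1.64 and 0.987 CPM in RFP DMSO and 1.08, 1.11 and 1.95 in RFP rapamycin. It reached 37.8, 23.9 and 21.2 CPM in GFP-HRAS DMSO and 2.48, 2.13 and 1.52 in GFP-HRAS rapamycin. The GFP-HRAS DMSO libraries were above all 9 others, which overlapped. The interaction was -3.56 ± 0.512 (95% interval -4.68 to -2.44; edgeR, adjusted p = 0.0485), from -3.75 ± 0.366 with rapamycin in GFP-HRAS and -0.19 ± 0.373 in RFP.

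UNC93B1, which carries nucleic acid-sensing Toll-like receptors to endosomes in mammals, had the narrowest spread of the immune genes called. Its levels were 6.76, 5.11 and 4.82 CPM in RFP DMSO, 7.00, 6.77 and 7.29 in RFP rapamycin, 34.0, 29.1 and 30.7 in GFP-HRAS DMSO and 8.40, 5.18 and 4.38 in GFP-HRAS rapamycin. GFP-HRAS DMSO stood clear of the other groups, and GFP-HRAS rapamycin overlapped both RFP groups. The interaction was -2.71 ± 0.344 (interval -3.47 to -1.96; edgeR, adjusted p = 0.0485).

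CCR8, a chemokine receptor of T cells in mammals, was at 0.548 to 0.780 CPM in RFP DMSO, and RFP rapamycin held 0.573 to 0.976. It stood at 16.1, 15.8 and 14.6 CPM in GFP-HRAS DMSO and 1.99, 1.26 and 0.670 in GFP-HRAS rapamycin. The last of these, replicate 3, lay within the RFP range and the other 2 above it. The interaction was -3.64 ± 0.528 (interval -4.80 to -2.49; edgeR, adjusted p = 0.0485).

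PIK3CD encodes the delta catalytic subunit of phosphoinositide 3-kinase, the form found mainly in leukocytes in mammals. It stood at 1.69 to 1.88 CPM in RFP DMSO, without overlap with the 2.44 to 2.78 CPM of RFP rapamycin, then at 24.1, 13.7 and 9.36 in GFP-HRAS DMSO and 2.83, 2.59 and 1.95 in GFP-HRAS rapamycin. Both rapamycin groups therefore lay near the same level. The interaction was -3.19 ± 0.464 (interval -4.21 to -2.18; edgeR, adjusted p = 0.0485).

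The estimated rapamycin effect had opposite signs in the lines for 7 of the 8 called genes, all but ciita. None of the effects in RFP was called. Choosing genes by the difference of the 2 effects favours opposite signs by construction, and the share over all genes was not counted. The count of 7 is therefore only a description. The pair with the smallest unadjusted p in RFP are described next. The uncharacterised gene si:ch211-79k12.1 stood at 14.1, 20 and 10.5 CPM in RFP DMSO and 30.7, 31.4 and 29.8 in RFP rapamycin, and at 47.5, 26.4 and 38.8 in GFP-HRAS DMSO and 7.75, 10.03 and 13.4 in GFP-HRAS rapamycin. Within each line the groups did not overlap, and the drug went with higher values in RFP and lower values in GFP-HRAS. The interaction was -2.89 ± 0.406 (interval -3.78 to -2.0; edgeR, adjusted p = 0.0485), from 1.04 ± 0.284 in RFP (unadjusted p = 0.0035, not called) and -1.85 ± 0.290 in GFP-HRAS (adjusted p = 0.0064).

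The only called gene with a positive interaction was lonrf1, which encodes a protein with a LON peptidase domain and a RING finger. Its levels were 63.1, 70.2 and 79.8 CPM in RFP DMSO, 47.0, 41.8 and 35.6 in RFP rapamycin, 23.1, 17.2 and 16.9 in GFP-HRAS DMSO and 39.1, 38.5 and 45.3 in GFP-HRAS rapamycin. The rapamycin groups of the 2 lines overlapped while the DMSO groups lay far apart on both sides of them. The interaction was 1.88 ± 0.252 (interval 1.33 to 2.43; edgeR, adjusted p = 0.0485), from 1.1 ± 0.179 in GFP-HRAS and -0.78 ± 0.178 in RFP (unadjusted p = 0.001, not called).

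The remaining called genes have no assigned function in the tables used here. ENSDARG00000010729, which has no symbol, stood at 2.36 to 3.95 CPM in RFP DMSO, 3.83 to 6.71 in RFP rapamycin, 155.5, 52.7 and 174.6 in GFP-HRAS DMSO and 8.003, 10.69 and 3.226 in GFP-HRAS rapamycin. Its interaction was -4.83 ± 0.711 (edgeR, adjusted p = 0.0485). si:ch211-260p9.3 passed the expression filter through GFP-HRAS DMSO alone, and such entry favours a negative interaction. It had 7 counts in all of RFP DMSO, so its levels are given without a fold. They were 0.110 to 0.182 CPM in RFP DMSO, 0.166 to 0.526 in RFP rapamycin, 5.33, 4.91 and 3.98 in GFP-HRAS DMSO and 0.298, 0.199 and 0.487 in GFP-HRAS rapamycin. In both genes the GFP-HRAS DMSO libraries stood above the 9 others.

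**Figure D2:**
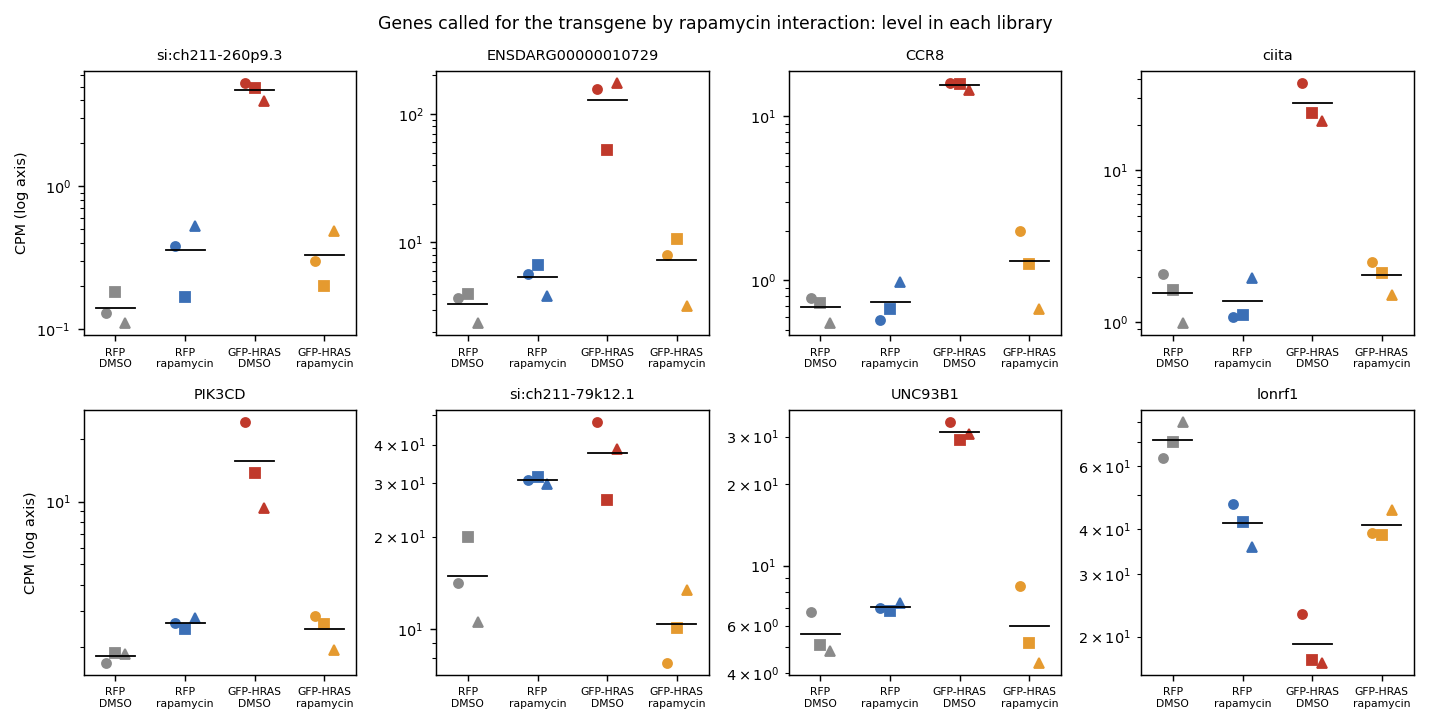
CPM (log axis) of the 8 genes called for the interaction in each library, by group; circles, squares and triangles are replicates 1, 2 and 3 and bars are group means. In 6 panels GFP-HRAS DMSO lies above all other libraries, in si:ch211-79k12.1 its lowest library (26.4 CPM) lies below the RFP rapamycin libraries, and in lonrf1 it lies lowest. The genes were chosen by these values, so their separation is partly built in.

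The next 13 genes had an adjusted p of 0.0522 to 0.0527 and were therefore not called; they were looked at because they lie next to the threshold, after their values were seen. cd74b, the invariant chain that escorts class II molecules, was at 774, 576 and 640 CPM in GFP-HRAS DMSO and 75.3, 56.3 and 23.5 in GFP-HRAS rapamycin, against 13.5 to 29.1 in the 6 RFP libraries (interaction -3.73 ± 0.566). The class II gene mhc2d4b stood at 30.2, 27.1 and 17.0 CPM in GFP-HRAS DMSO and 2.39, 1.86 and 0.791 in GFP-HRAS rapamycin (interaction -4.00 ± 0.660). il34, a ligand of the macrophage receptor CSF1R, was at 62.6, 46.1 and 41.0 CPM in GFP-HRAS DMSO and 15.3, 18.9 and 12.7 in GFP-HRAS rapamycin, against 7.11 to 9.99 in the RFP libraries (interaction -1.91 ± 0.294).

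Among these 13 genes, 3 had a positive interaction. CRAT (ENSDARG00000016545), carnitine acetyltransferase of mitochondria, stood at 70.5, 86.2 and 88.8 CPM in RFP DMSO and 54.0, 65.2 and 66.8 in RFP rapamycin, and at 39.7, 28.1 and 27.9 in GFP-HRAS DMSO and 66.4, 75.2 and 89.4 in GFP-HRAS rapamycin (interaction 1.67 ± 0.270). si:ch73-308b14.1, an uncharacterised gene, was at 162, 360 and 341 CPM in RFP DMSO and 86.2, 108 and 60.5 in RFP rapamycin, and at 77.1, 97.7 and 163 in GFP-HRAS DMSO and 239, 356 and 437 in GFP-HRAS rapamycin (interaction 3.37 ± 0.537). The order of the groups was opposite in the 2 lines, with lower values under the drug in RFP and higher values in GFP-HRAS. The third was CCDC186 (interaction 2.47 ± 0.406).

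Seen over all genes, rapamycin had wide effects in GFP-HRAS and none that were called in RFP. In GFP-HRAS, edgeR called 1947 genes for rapamycin (12.1%), 936 that rose (5.83%) and 1011 that fell (6.3%). With library totals in place of TMM the split was 254 that rose to 3218 that fell. The count of 1947 became 533 and 872 without replicates 2 and 3 of GFP-HRAS DMSO, 692 and 866 without replicates 2 and 3 of GFP-HRAS rapamycin, and 1437 to 2305 without any other single library. In RFP, edgeR called 0 genes, the smallest adjusted p being 0.1065; 787 genes (4.91%) had an unadjusted p under 0.05, DESeq2 called 26 (0.162%) and voom with quality weights 11 (0.0686%). No gene was called for rapamycin in both lines. A call in one line and none in the other does not show a difference, which is what the interaction tests.

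The SD of the rapamycin effect over genes was 0.977 in GFP-HRAS and 0.584 in RFP, with a median SE of 0.343 in each. The SEs come from a common fit with a shared spread, so their likeness does not measure the spread within each line. Across the 16044 genes the effects in the lines, which share no library, had a Pearson r of 0.161 and a Spearman rho of 0.212, given as a description since genes are not independent. The 936 genes that rose in GFP-HRAS had a median effect of 1.09 there and 0.17 in RFP, where 76.5% of them lay above 0, against 51.5% of all genes. The 1011 genes that fell had a median of -2.01 in GFP-HRAS and -0.12 in RFP, where 38.9% lay above 0. In 85 of the risers and 68 of the fallers the RFP effect had the same sign and was at least 0.5 times that in GFP-HRAS, against 4766 of all 16044 genes. Both sets were chosen by the size of the GFP-HRAS effect against its error, which by construction lowers this ratio. The fallers had a median level of 1.85 CPM in RFP DMSO, 10.1 in GFP-HRAS DMSO and 2.77 in GFP-HRAS rapamycin, and the risers 47.4, 21.0 and 46.8 CPM. Both sets were chosen by the difference between the GFP-HRAS groups, so the step between those levels is built in. Passing the expression filter through GFP-HRAS DMSO alone favours fallers, and how many passed so was not counted.

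**Figure D3:**
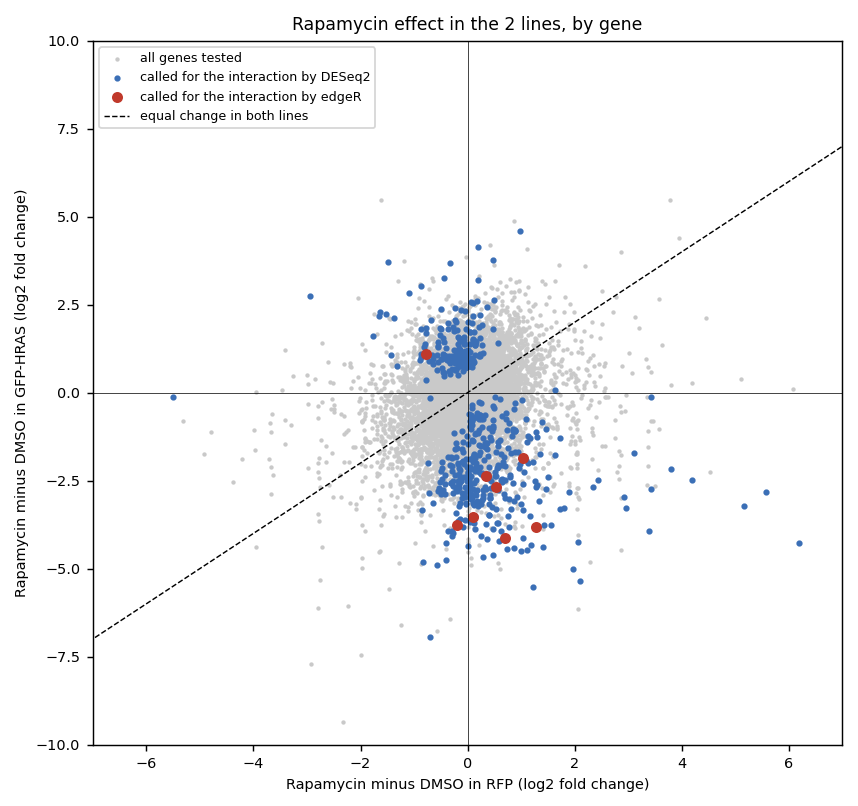
Rapamycin effect (log2 fold change against DMSO) in RFP (x axis) and in GFP-HRAS (y axis) for each gene tested; grey points are all genes, blue points genes called for the interaction by DESeq2, red points those called by edgeR, and the dashed line marks equal change. Red and blue points were chosen by the difference between the plotted effects, so their distance from the dashed line is built in.

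The interaction was also described over lists of pathway and cell type genes, with no test of a list as a whole. Lists are described by counts and medians beside the same over all genes, for which the median interaction was 0.01, with 5% of genes below -1.91 and 5% above 1.35. The lists were chosen with earlier results of these data known. The class II antigen presentation list held 12 tested genes, with 7 lower and 0 higher at an unadjusted p under 0.05, against 7.52% lower over all genes. DESeq2 called the same number, 7 lower, and edgeR 1, which was ciita, against 2.11% and 0.0436% of all genes. The list's median interaction was -2.15, from -2.50 in GFP-HRAS and -0.07 in RFP. Put as the difference between the lines, the median stood at 2.90 in DMSO and 0.75 in rapamycin.

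Within that list the invariant chain, class II and cathepsin genes had the larger interactions. cd74a, the second invariant chain gene, was at 3594, 2523 and 2303 CPM in GFP-HRAS DMSO and 257, 206 and 90.3 in GFP-HRAS rapamycin, against 42.6 to 132 in the 6 RFP libraries (interaction -3.64 ± 0.650; edgeR, adjusted p = 0.074). mhc2dab, a class II beta chain, was at 355, 238 and 281 CPM in GFP-HRAS DMSO and 20.1, 22.6 and 1.95 in GFP-HRAS rapamycin. With 2 counts in all of RFP DMSO it is given without a fold, and 1 RFP rapamycin library held 9.82 CPM where the others held 0 and 0.150. The cathepsin S genes ctss2.2 and ctss2.1, which trim the invariant chain, had interactions of -2.39 ± 0.596 and -1.92 ± 0.555. For the factors that bind class II promoters the estimates lay near 0: rfx5, RFXAP and RFXANK, subunits of the RFX factor, had 0.34 ± 0.346, 0.23 ± 0.495 and -0.15 ± 0.527.

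In several of these genes GFP-HRAS rapamycin replicate 3 was the lowest library of its group, as in cd74b and mhc2dab. Without it the list's median interaction was -1.91, and without any single library it ranged from -2.67 to -1.91. Markers of leukocytes moved with the class II genes, and their part in the result was not tested.

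The macrophage and general leukocyte list had 26 tested genes. At an unadjusted p under 0.05, 17 (65.4%) were lower and 0 higher, against 7.52% lower over all genes. DESeq2 called 10 of the list lower, against 2.11% of all genes, and edgeR 0. The summed level of the list was 174 to 403 CPM in RFP DMSO, 181 to 266 in RFP rapamycin, 1379 to 2273 in GFP-HRAS DMSO and 240 to 494 in GFP-HRAS rapamycin, and no member was at 0 in any group. The median interaction was -1.94, and edgeR called 17 of the 26 as having fallen with rapamycin in GFP-HRAS, against 6.3% of all genes. ptprc (CD45), carried by all leukocytes, stood at 141, 179 and 134 CPM in GFP-HRAS DMSO and 32.0, 28.8 and 17.0 in GFP-HRAS rapamycin, against 10.3 to 22.8 in the RFP libraries (interaction -2.03 ± 0.402; edgeR, adjusted p = 0.0867). fcer1g, an adaptor of activating Fc receptors, stood at 30.1, 21.3 and 12.3 CPM and then 4.28, 3.32 and 1.89 in GFP-HRAS, against 1.89 to 2.67 in RFP (interaction -2.73 ± 0.514; adjusted p = 0.084).

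The myeloid genes csf1ra and spi1a had wider errors than ptprc and fcer1g. Of the list, 24 genes had an interaction below 0 and 2 above, apoeb (0.28 ± 1.47) and apoc1 (0.48 ± 2.06). csf1ra, the receptor for the growth factor of macrophages, was at 125, 176 and 191 CPM in GFP-HRAS DMSO and 48.6, 27.0 and 10.2 in GFP-HRAS rapamycin (interaction -1.86 ± 0.644; edgeR, adjusted p = 0.248). spi1a, a transcription factor of myeloid cells, was at 77.3, 70.0 and 96.9 CPM and then 20.8, 14.3 and 7.61 (interaction -2.33 ± 0.666; adjusted p = 0.174). In GFP-HRAS rapamycin the 3 libraries of both genes ran in the same order, replicate 3 being lowest. The neutrophil list of 10 genes had a median interaction of -0.35. It ran from -1.37 without RFP DMSO replicate 1 to -0.05 without RFP DMSO replicate 3. At an unadjusted p under 0.05, 1 was lower (10%), against 7.52% over all genes. That gene was MMP9, a matrix metalloproteinase, at 76.2, 27.1 and 31.9 CPM in RFP rapamycin against 5.27, 22.7 and 20.8 in RFP DMSO (interaction -2.51 ± 0.704; adjusted p = 0.167).

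Lymphocyte genes had the lowest median interaction of the lists, -2.71 over 17 tested genes. At an unadjusted p under 0.05, 9 (52.9%) were lower and 1 (5.88%) higher, against 7.52% and 6.84% over all genes. DESeq2 called 8 lower, against 2.11% of all genes. Voom with quality weights called 4 lower and 1 higher, against 3.48% and 3.73% of all genes. Of 31 genes found for the list, only these 17 passed the filter. Some passed through GFP-HRAS DMSO, as gzmk did with 98 counts there and 4 to 9 in each other group. Such entry favours negative interactions, so the median and the count of lower genes are partly set by the filter. In the macrophage list c1qa, c1qb and CORO1A entered likewise. trbc1, the constant region of the T cell receptor beta chain, was at 26.5, 14.7 and 8.76 CPM in GFP-HRAS DMSO and 0.845, 1.06 and 0.670 in GFP-HRAS rapamycin, against 0.254 to 0.658 in the 6 RFP libraries. The GFP-HRAS groups did not overlap, and GFP-HRAS rapamycin lay just above the RFP libraries. Its interaction was -3.86 ± 0.673 (edgeR, adjusted p = 0.0667). ZAP70, a kinase of T cell receptor signalling, was at 34.1, 21.2 and 9.36 CPM and then 1.69, 1.53 and 0.243 in GFP-HRAS, against 0.0548 to 0.610 in RFP (interaction -4.80 ± 1.11; adjusted p = 0.123). il7r, the interleukin-7 receptor of lymphocytes, was at 10.4, 8.10 and 3.70 CPM and then 1.49, 0.864 and 0.426 (interaction -3.90 ± 0.795; adjusted p = 0.0944).

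The cytotoxic genes prf1.8, EOMES and nkl.2 varied widely within GFP-HRAS DMSO and within RFP rapamycin. These genes and nkl.4 are among the members counted as lower at an unadjusted p under 0.05. Voom with quality weights called none of them. It gave smaller interactions for prf1.8 (-3.28 against -8.40 with edgeR) and EOMES (-1.99 against -5.04). prf1.8, a perforin, was at 399, 105 and 60.8 CPM in GFP-HRAS DMSO and 15.1, 51.8 and 13.0 in GFP-HRAS rapamycin, and at 45.8, 0.555 and 0.526 in RFP rapamycin. RFP rapamycin replicate 1 also held the highest EOMES (ENSDARG00000006640, 4.64 CPM) and nkl.2 (5.79 CPM) of the 6 RFP libraries, genes of cytotoxic cells. GATA3, a transcription factor listed for T cells that was at 17.9, 9.66 and 10.5 CPM in GFP-HRAS DMSO and 34.39 to 38.58 in RFP DMSO, was the 1 member higher at an unadjusted p under 0.05 (interaction 1.13 ± 0.377; edgeR, adjusted p = 0.234).

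Interferon response genes were lower by the interaction in 21 of 37 tested genes (56.8%) at an unadjusted p under 0.05, and higher in 0. Over all genes the share lower was 7.52%. DESeq2 called 13 of the list lower, voom with quality weights 15 and edgeR 0, against 2.11%, 3.48% and 0.0436% over all genes. The median interaction was -1.11, from -1.08 in GFP-HRAS and 0.24 in RFP, and it was -1.72 without GFP-HRAS rapamycin replicate 3. gbp2, a guanylate-binding protein induced by interferon, was at 40.4, 31.1 and 40.2 CPM in GFP-HRAS DMSO and 13.5, 16.8 and 22.6 in GFP-HRAS rapamycin, and at 4.03, 4.93 and 5.59 in RFP DMSO and 9.86, 8.93 and 7.96 in RFP rapamycin. No 2 groups overlapped, and the drug groups lay between the DMSO groups. Its interaction was -1.96 ± 0.314 (edgeR, adjusted p = 0.0527), with 0.88 ± 0.226 in RFP (unadjusted p = 0.0023).

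Other interferon genes differed in how close they came to the RFP level. isg15, a ubiquitin-like protein, was at 38.9, 20.8 and 22.5 CPM in GFP-HRAS DMSO and 5.22, 10.3 and 5.42 in GFP-HRAS rapamycin, where RFP rapamycin held 2.55 to 6.81 (interaction -2.63 ± 0.574; edgeR, adjusted p = 0.105). The immunoproteasome subunit PSMB9 was at 36.8, 22.6 and 17.0 CPM and then 5.87, 5.31 and 3.04, where RFP rapamycin held 1.97 to 3.68 (interaction -2.82 ± 0.615; adjusted p = 0.105). b2m, the light chain of class I molecules, was high everywhere, at 701 to 823 CPM in GFP-HRAS DMSO, 505.5 to 670.5 with rapamycin, 417 to 530 in RFP DMSO and 524 to 658 with rapamycin (interaction -0.74 ± 0.245; adjusted p = 0.229).

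Part of the cell cycle genes also fell with rapamycin in GFP-HRAS, and the mitosis and S phase lists kept a median above that in RFP. Of 39 mitosis genes, edgeR called 18 as having fallen with rapamycin in GFP-HRAS and 0 as having risen. Over all genes, 6.3% were called as having fallen and 5.83% as having risen. The difference between the lines had a median of 5.24 in DMSO and 4.05 in rapamycin. These genes were scarcely expressed in RFP. All 39 together summed to 31.5 to 40.9 CPM per RFP library without the drug, and to 22.6 to 35.3 CPM with it. In each of these groups 1 member was at 0. The size of every mitosis median that involves RFP, the interaction included, therefore rests on very low levels and is uncertain. The interaction reached an unadjusted p under 0.05 in 4 genes (10.3%), all lower, near the 7.52% lower over all genes. Its median was -0.80, with a median rapamycin effect of -1.54 in GFP-HRAS and -0.55 in RFP. mki67, the proliferation antigen, was at 43.1, 66.6 and 71.3 CPM in GFP-HRAS DMSO and 24.6, 25.2 and 8.95 in GFP-HRAS rapamycin, against 1.11 to 3.25 in the RFP libraries (interaction -1.63 ± 0.615; edgeR, adjusted p = 0.278). TPX2, a spindle assembly factor, was at 30.19, 45.89 and 53.04 CPM and then 17.8, 17.1 and 5.78 (interaction -1.88 ± 0.585; adjusted p = 0.203). In both genes the GFP-HRAS groups did not overlap and replicate 3 was the lowest with rapamycin.

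Of 36 S phase genes, 5 (13.9%) were lower and 0 higher at an unadjusted p under 0.05, against 7.52% lower over all genes. The list's median interaction was -0.76. MCM7, a subunit of the replicative helicase, had similar levels in the DMSO groups of both lines. It stood at 25.6, 47.4 and 45.2 CPM in RFP DMSO, 46.8, 51.6 and 33.9 in RFP rapamycin, 39.4, 46.0 and 41.2 in GFP-HRAS DMSO and 22.2, 18.5 and 16.7 in GFP-HRAS rapamycin, the lowest group (interaction -1.30 ± 0.342; edgeR, adjusted p = 0.154). Without GFP-HRAS rapamycin replicate 3 the median interaction of S phase was -0.42, and without RFP rapamycin replicate 1 that of mitosis was -0.46. PCNA, the sliding clamp of DNA replication, had an interaction of -0.75 ± 0.344 (adjusted p = 0.349).

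The cell cycle inhibitor cdkn1a behaved otherwise. It was at 4.88, 5.71 and 4.99 CPM in RFP DMSO and 6.43, 12.0 and 10.2 in RFP rapamycin, and at 28.1, 30.4 and 30.5 in GFP-HRAS DMSO and 25.2, 18.8 and 28 in GFP-HRAS rapamycin. The groups did not overlap in either line, the larger relative difference being that in RFP (0.88 ± 0.237, unadjusted p = 0.0032), and the interaction was -1.18 ± 0.328 (edgeR, adjusted p = 0.163). DESeq2 and voom with quality weights called it, at adjusted p = 0.031 and 0.017.

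Matrix and fibroblast genes had a median interaction of -0.70 over 47 tested genes. At an unadjusted p under 0.05, 8 (17%) were lower and 1 (2.13%) higher, against 7.52% and 6.84% over all genes. The collagen COL12A1 (ENSDARG00000078322) was at 285, 704 and 532 CPM in GFP-HRAS DMSO and 206, 131.5 and 38.8 in GFP-HRAS rapamycin, against 21.8 to 60.1 in the RFP libraries (interaction -1.94 ± 0.774; edgeR, adjusted p = 0.30). col1a1a, a chain of type I collagen, was at 15.6, 19.9 and 23.2 CPM and then 18.4, 7.97 and 3.23, groups that overlapped (interaction -1.80 ± 0.760; adjusted p = 0.323). GFP-HRAS rapamycin replicate 1 stayed high and replicate 3 was low in each, and the list's median was -1.30 without replicate 1, and -0.42 without GFP-HRAS DMSO replicate 2. The matrix gene EFEMP1, a fibulin, went the other way, at 0.956, 1.06 and 0.358 CPM in GFP-HRAS DMSO and 7.06, 22.0 and 13.2 in GFP-HRAS rapamycin, against 4.45 to 26.6 in the RFP libraries (interaction 3.94 ± 0.945; adjusted p = 0.126).

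**Figure D4:**
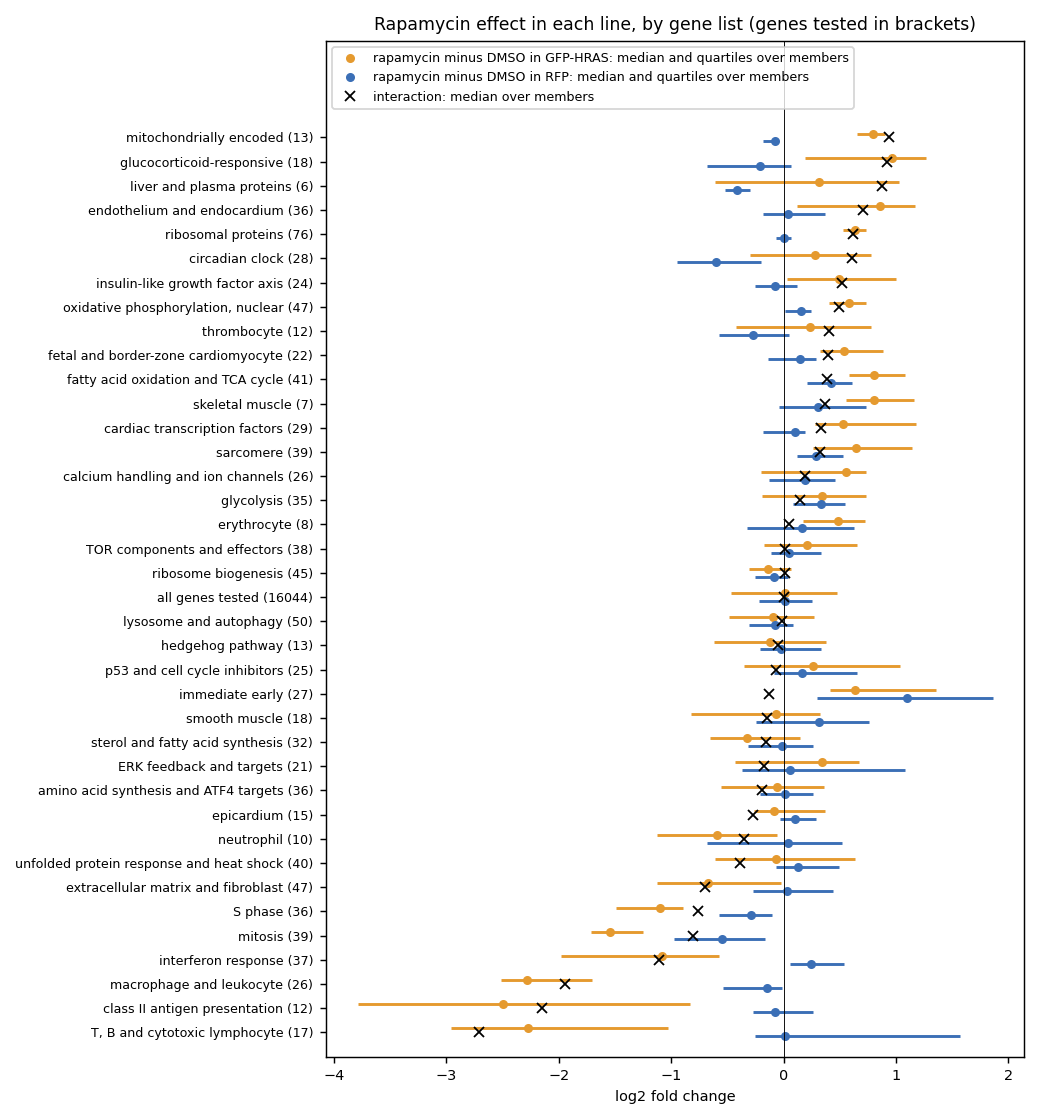
Median log2 fold change of rapamycin against DMSO over the tested members of each gene list, in GFP-HRAS (orange) and in RFP (blue), with bars from the lower to the upper quartile, and the median interaction (cross). The lymphocyte list has the lowest median interaction at -2.71, ribosomal proteins stand at 0.62, and the RFP medians lie between -0.60 (circadian clock) and 1.1 (immediate early).

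Genes of the vessels and endocardium had mostly positive interactions. Of 36 tested genes, 12 were higher and 0 lower at an unadjusted p under 0.05, against 6.84% higher over all genes. DESeq2 called 6 higher, voom with quality weights 12 and edgeR 0, against 1.07%, 3.73% and 0.00623% of all genes. The median interaction was 0.71, and edgeR called 15 of the 36 as having risen with rapamycin in GFP-HRAS, against 5.83% of all genes. The summed level was 3824 to 4131 CPM in RFP DMSO, 3747 to 4072 in RFP rapamycin, 1418 to 1645 in GFP-HRAS DMSO and 2365 to 3473 in GFP-HRAS rapamycin.

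kdrl, a receptor for vascular endothelial growth factor, stood at 417, 507 and 447 CPM in RFP DMSO, 416, 299 and 354 in RFP rapamycin, 122.5, 116 and 111 in GFP-HRAS DMSO and 170, 218 and 277 in GFP-HRAS rapamycin. The GFP-HRAS groups did not overlap, and both stayed below the RFP libraries. Its interaction was 1.29 ± 0.279 (edgeR, adjusted p = 0.103). cdh5, the cadherin of endothelial junctions, was at 139, 182 and 209 CPM in GFP-HRAS DMSO and 350, 318 and 335 in GFP-HRAS rapamycin, against 466 to 644 in RFP (interaction 1.09 ± 0.254; adjusted p = 0.123). NFATC1, a transcription factor of endocardium, was at 26.1, 24.6 and 32.0 CPM and then 72.2, 75.9 and 54.8 (interaction 0.96 ± 0.313; adjusted p = 0.221).

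Ribosomal protein genes were lowest in GFP-HRAS DMSO. Of 76 tested genes, translation elongation factors among them, 50 (65.8%) were higher and 0 lower at an unadjusted p under 0.05. Over all genes, 6.84% were higher. DESeq2 called 10 of the list higher and voom with quality weights 29, against 1.07% and 3.73% of all genes, and edgeR 0. The median interaction was 0.62, from 0.63 in GFP-HRAS and 0.00 in RFP, and 74 of the 76 lay above 0. Their summed level was 76880 to 89320 CPM in RFP DMSO, 72980 to 101600 in RFP rapamycin, 46740 to 56320 in GFP-HRAS DMSO and 83100 to 84620 in GFP-HRAS rapamycin. RPL8 gives the pattern, at 801, 712 and 679 CPM in GFP-HRAS DMSO and 1297, 1282 and 1268 in GFP-HRAS rapamycin, against 1013 to 1466 in RFP (interaction 0.81 ± 0.235; edgeR, adjusted p = 0.177). Ribosome biogenesis genes, which act in assembling the ribosome, had a median interaction of 0.01 over 45 genes, with 1 higher and 0 lower.

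These values are relative to the TMM scaling, which set GFP-HRAS DMSO apart with factors of 1.21 to 1.35, against 0.789 to 0.964 in the RFP groups. With library totals in its place, the median interaction of all genes was -0.34, that of the ribosomal proteins 0.28 and that of the endothelial list 0.34. The change of scaling shifts all genes by nearly the same amount, so it does not test how the lists stand to the other genes.

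The mitochondrial and sarcomere lists also had medians above 0. Of 47 nuclear genes of oxidative phosphorylation, 12 (25.5%) were higher and 1 (2.13%) lower at an unadjusted p under 0.05. Over all genes the shares were 6.84% and 7.52%. The list had a median of 0.49, with 0 called by edgeR or DESeq2. That median was 0.29 without RFP DMSO replicate 1 and 0.32 without RFP rapamycin replicate 2. The 13 mitochondrially encoded genes all lay above 0 with a median of 0.94, and 1 (7.69%) had an unadjusted p under 0.05. Their median was 0.53 without RFP DMSO replicate 1 and 1.5 without RFP rapamycin replicate 3. Their share of counts ran from 10.1% to 16.0% in GFP-HRAS without the drug and from 13.5% to 19.5% with it, and from 10.2% to 21.8% in the 6 RFP libraries. PDK2 (ENSDARG00000020876), a kinase that restrains pyruvate dehydrogenase, was at 70.2, 21.0 and 45.7 CPM in GFP-HRAS DMSO and 128.5, 248 and 158.5 in GFP-HRAS rapamycin, against 138.5 to 332 in RFP (interaction 2.32 ± 0.575; edgeR, adjusted p = 0.136).

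The sarcomere list had a median of 0.33 over 39 genes. At an unadjusted p under 0.05, 7 (17.9%) were higher and 1 (2.56%) lower, against 6.84% and 7.52% over all genes. The list's median was -0.01 with library totals and 0.10 to 0.42 with 1 library left out, the lowest without GFP-HRAS rapamycin replicate 1. actc1a, a cardiac actin, stood at 6957, 7473 and 6083 CPM in RFP DMSO, 7721, 7202 and 7579 in RFP rapamycin, 3255, 2849 and 2549 in GFP-HRAS DMSO and 6205, 6080 and 5983 in GFP-HRAS rapamycin. The GFP-HRAS groups did not overlap, and the GFP-HRAS rapamycin libraries lay close together beside the lowest RFP library. The interaction was 0.94 ± 0.223 (edgeR, adjusted p = 0.123), and DESeq2 called it at 0.00045. LMOD2 (ENSDARG00000045864), which nucleates thin filaments, was at 470, 246 and 242 CPM and then 802, 790 and 919, against 955 to 1491 in RFP (interaction 1.56 ± 0.373; adjusted p = 0.126). Of the 39 genes 15 lay below 0, and tpm1, a tropomyosin, was the 1 lower at an unadjusted p under 0.05, at 61.6, 79.6 and 64.2 CPM in GFP-HRAS DMSO and 41.4, 19.1 and 7.73 in GFP-HRAS rapamycin (interaction -1.83 ± 0.661; adjusted p = 0.265).

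Among cardiac transcription factors 8 of 29 (27.6%) were higher and 0 lower at an unadjusted p under 0.05, against 6.84% higher over all genes. The list's median of 0.33 became -0.01 with library totals. prdm16 (ENSDARG00000078324), a regulator of compact ventricular muscle in mice, was at 35.37 to 38.64 CPM in RFP DMSO, 36.2 to 44.0 in RFP rapamycin, 18.2, 12.4 and 12.0 in GFP-HRAS DMSO and 32.5, 44.3 and 38.1 in GFP-HRAS rapamycin (interaction 1.28 ± 0.272; edgeR, adjusted p = 0.102). gata4, a factor of heart muscle development, stayed lower, at 50.9, 47.4 and 58.5 CPM in GFP-HRAS DMSO and 92.4, 76.8 and 137 in GFP-HRAS rapamycin against 184 to 308 in RFP (interaction 0.85 ± 0.353; adjusted p = 0.316). The potassium channel gene kcnq1.1, of the repolarising current, was at 48.3, 21.2 and 32.9 CPM and then 63.5, 87.8 and 88.2 in GFP-HRAS, where RFP held 61.9 to 79.7 (interaction 1.36 ± 0.364; adjusted p = 0.154).

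The natriuretic peptides showed no difference in response that was detectable with these libraries. For nppa the interaction was 0.89 ± 0.453 (interval -0.10 to 1.88; edgeR, adjusted p = 0.399). For nppb it was 0.26 ± 0.935 (interval -1.78 to 2.31; adjusted p = 0.931), with 3006, 3943 and 761 CPM in the GFP-HRAS rapamycin libraries, and it was -0.11 with library totals.

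**Figure D5:**
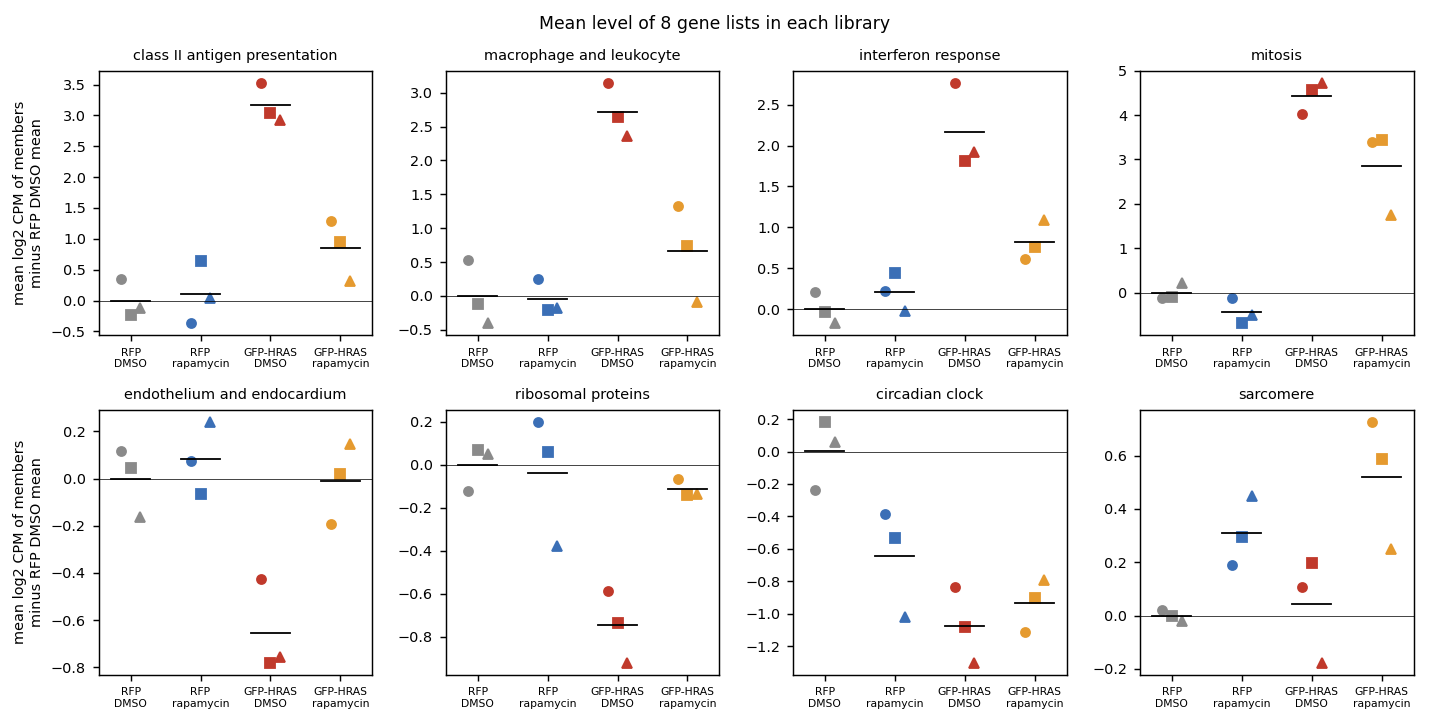
Mean log2 CPM of the members of 8 gene lists in each library minus the mean of RFP DMSO, by group; circles, squares and triangles are replicates 1, 2 and 3 and bars are group means. Class II and macrophage genes are high in GFP-HRAS DMSO and nearer 0 with rapamycin, mitosis genes stay above 1.5 in GFP-HRAS rapamycin, and ribosomal proteins are lowest in GFP-HRAS DMSO.

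In the circadian clock list the larger of the 2 effects was that in RFP. Of 28 tested genes, 7 (25%) were higher and 0 lower by the interaction at an unadjusted p under 0.05. Over all genes, 6.84% were higher. The list's median interaction was 0.61, from 0.28 in GFP-HRAS and -0.60 in RFP. The median interaction was 0.38 without RFP DMSO replicate 2, 1.06 without RFP rapamycin replicate 1 and 0.36 without RFP rapamycin replicate 3. In RFP alone, 9 were lower and 1 higher with rapamycin at an unadjusted p under 0.05, against 2.13% lower over all genes, and none was called. CRY2, a repressor of the clock, was at 54.7, 109 and 77.1 CPM in RFP DMSO and 41.5, 33.3 and 19.8 in RFP rapamycin, and at 48.4, 35.3 and 34.4 in GFP-HRAS DMSO and 35.1, 42.6 and 32.0 in GFP-HRAS rapamycin (interaction 1.24 ± 0.425; edgeR, adjusted p = 0.244). The labels used here give no time of day for sampling, and its part in these values was not tested.

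PER2, a clock repressor also induced by light in zebrafish, did not follow that pattern. It stood at 65.6, 63.5 and 69.2 CPM in RFP DMSO, 69.4, 55.4 and 46.4 in RFP rapamycin, 67.2, 56.3 and 55.0 in GFP-HRAS DMSO and 118, 128 and 138 in GFP-HRAS rapamycin. The first 3 groups overlapped and GFP-HRAS rapamycin stood above them all. The interaction was 1.32 ± 0.240 (interval 0.79 to 1.84; edgeR, adjusted p = 0.0793), DESeq2 and voom with quality weights called it at 7.2e-05 and 0.0092, and the estimate stayed between 0.96 and 1.49 in all 21 alternative fits.

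At an unadjusted p under 0.05, 4 of 18 glucocorticoid-responsive genes (22.2%) were higher and 0 lower, against 6.84% higher over all genes. The list had a median interaction of 0.92. Single RFP libraries moved it, to 0.27 without DMSO replicate 2, 0.46 without rapamycin replicate 3 and 1.47 without rapamycin replicate 1. zbtb16b, a transcription factor induced by glucocorticoids, was at 24.0, 57.8 and 60.7 CPM in RFP DMSO, 71.5, 39.2 and 42.2 in RFP rapamycin, 5.28, 3.85 and 3.82 in GFP-HRAS DMSO and 16.9, 31.9 and 27.4 in GFP-HRAS rapamycin (interaction 2.45 ± 0.528; edgeR, adjusted p = 0.102). Other members varied widely within groups. FKBP5, which encodes an FK506-binding protein, ran from 87.7 to 1626 CPM among the RFP rapamycin libraries (interaction 0.56 ± 1.11; adjusted p = 0.864), and KLF9 from 37.4 to 381 (2.40 ± 1.37; adjusted p = 0.454).

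Immediate-early genes had a higher median with rapamycin in both lines, 0.63 in GFP-HRAS and 1.1 in RFP, and a median interaction of -0.13 over 27 genes. That median has no stable sign. It ranged from -0.41 without RFP DMSO replicate 2 to 0.45 without RFP rapamycin replicate 1, and was also above 0 without GFP-HRAS DMSO replicate 1 (0.29) or GFP-HRAS rapamycin replicate 3 (0.03). EGR2, an immediate-early factor, was at 6.42, 3.93 and 3.38 CPM in GFP-HRAS DMSO and 0.597, 0.731 and 0.243 in GFP-HRAS rapamycin, against 0.0608 to 0.318 in RFP (interaction -3.04 ± 0.936; edgeR, adjusted p = 0.199). It passed the filter only with GFP-HRAS DMSO libraries counted, and such entry favours negative interactions.

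The list of TOR components and effectors, which holds the drug's target pathway, was centred on 0. Its median interaction was 0.01 over 38 genes, with 3 higher (7.89%) and 3 lower (7.89%) at an unadjusted p under 0.05. Over all genes, 6.84% were higher and 7.52% lower. With rapamycin in GFP-HRAS, edgeR called 3 as having risen and 1 as having fallen, against 5.83% and 6.3% of all genes. FNIP1, a partner of folliculin in TORC1 signalling at the lysosome, was at 82.5, 93.5 and 94.0 CPM in RFP DMSO, 62.2, 81.7 and 55.8 in RFP rapamycin, 52.5, 52.1 and 45.8 in GFP-HRAS DMSO and 81.6, 81.5 and 60.4 in GFP-HRAS rapamycin (interaction 1.01 ± 0.257; edgeR, adjusted p = 0.142). TFE3, a transcription factor of lysosome genes that TORC1 holds in the cytoplasm, was at 6.50 to 7.11 CPM in RFP DMSO, 9.99 to 12.4 in RFP rapamycin, 7.47, 10.4 and 10.3 in GFP-HRAS DMSO and 6.01, 6.04 and 11.3 in GFP-HRAS rapamycin (interaction -0.96 ± 0.370; adjusted p = 0.286).

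Of 21 ERK feedback and target genes, 2 (9.52%) were higher and 1 (4.76%) lower at an unadjusted p under 0.05. Over all genes the shares were 6.84% and 7.52%. The list's median of -0.18 changed sign with single libraries. Leaving out RFP rapamycin replicate 1 gave 0.42, GFP-HRAS rapamycin replicate 3 gave 0.22 and RFP rapamycin replicate 2 gave -0.29. CCND1, cyclin D1, was the lower one, at 30.6, 39.9 and 42.7 CPM in GFP-HRAS DMSO and 24.7, 23.9 and 20.9 in GFP-HRAS rapamycin, against 31.7 to 46.5 in RFP (interaction -0.70 ± 0.256; edgeR, adjusted p = 0.269). DUSP6, a phosphatase of ERK, was at 5.05, 46.1 and 36.8 CPM in GFP-HRAS DMSO, so that 1 library decided its spread (interaction -1.62 ± 0.983; adjusted p = 0.483).

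Of the remaining lists, the shares of genes past an unadjusted p of 0.05 were above those of all genes (6.84% higher, 7.52% lower) in some and below in others. Fetal and border-zone cardiomyocyte genes had 4 higher of 22 (18.2%) and a median of 0.39, calcium handling and ion channels 4 higher of 26 (15.4%) and a median of 0.19, and fatty acid oxidation and the TCA cycle 4 higher of 41 (9.76%), with 34 of the 41 above 0. The fatty acid list's median of 0.39 ran from 0.13 without RFP DMSO replicate 1 to 1.06 without RFP rapamycin replicate 3. That of the calcium list was 0.58 without RFP rapamycin replicate 3. The p53 and cell cycle inhibitor list had 4 lower of 25 (16%), cdkn1a among them, and a median of -0.06, which was 0.31 without RFP rapamycin replicate 1. Liver and plasma protein genes had 2 higher of 6, and their median of 0.87 became -0.42 without RFP DMSO replicate 1. Among markers of other cells, epicardium had 1 higher of 15, erythrocytes 1 higher of 8, skeletal muscle 1 higher of 7, smooth muscle 1 higher and 2 lower of 18, and thrombocytes 1 higher and 1 lower of 12. Glycolysis had 0 of 35, with a smallest adjusted p of 0.367. Amino acid synthesis and ATF4 targets had 1 higher and 1 lower of 36, sterol and fatty acid synthesis 1 and 1 of 32, the hedgehog pathway 1 and 1 of 13, the insulin-like growth factor axis 2 higher of 24, lysosome and autophagy 3 higher and 5 lower of 50, and genes of heat shock and protein folding stress 2 higher and 4 lower of 40. INSR (ENSDARG00000071524), the insulin receptor, was at 27.64, 23.58 and 26.04 CPM in GFP-HRAS DMSO and 42.9, 68.4 and 65.7 in GFP-HRAS rapamycin, against 113 to 166 in RFP (interaction 1.25 ± 0.321; edgeR, adjusted p = 0.143). The lysosomal protease CTSZ was at 70.0, 76.8 and 74.8 CPM and then 36.5, 31.4 and 26.5, against 16.4 to 25.5 in RFP (interaction -1.22 ± 0.258; adjusted p = 0.102).

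The precision sets what could be called. The median SE of the interaction was 0.484 on the log2 scale against 0.343 for rapamycin within 1 line, since the interaction combines the error of 4 groups. The spread between libraries was widest in GFP-HRAS rapamycin, where the median SD of log2 CPM was 0.398, and 0.285 in GFP-HRAS DMSO. An interaction that was not called is not shown to be 0.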

How the data were processed

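Messenger RNA libraries were made with the CORALL mRNA-Seq kit from RNA extracted with QIAzol and RNeasy Micro columns, per the labels' protocols. The authors deposited whole-number counts per gene, not normalized; the submitters' processing notes name HISAT2 2.1.0, UMI-tools 1.1.1, featureCounts 1.6.0 and build GRCz11. Neither the annotation release nor the use of strand is given in the sources used here, so values of antisense partners and near-identical paralogues are uncertain. Columns named UR were read as UAS:RFP. Symbols came from a table that named 29201 of 32520 identifiers.

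The 12 libraries were fitted together in edgeR 4.0.16 (R 4.3.3) with TMM scaling, filterByExpr by group (minimum count 10), glmQLFit and glmQLFTest, and Benjamini-Hochberg adjustment. The SE was taken from the log2 fold change and the square root of its F statistic. Scripts were tested on simulated counts. DESeq2 1.42.0, limma 3.58.1, other scalings and filters, each library left out and a replicate block were alternatives. Named genes were the called genes, the member of each of 37 lists with the smallest adjusted p and a few fixed genes. Other list members were named after their values were seen, to show examples in each direction. The comparison and lists were chosen with earlier results of these data known. The injury experiment was not analysed here.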

Additional observations from a re-analysis of the deposited data

Results flagged for a closer look

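The difference in rapamycin effect between GFP-HRAS and RFP passed the interaction test in 8 genes, each at an edgeR adjusted p of 0.0485. On the log2 scale it was -2.71 for UNC93B1, 1.88 for lonrf1, -2.89 for si:ch211-79k12.1, -3.56 for ciita, -3.64 for CCR8, -3.19 for PIK3CD and -4.83 for ENSDARG00000010729. For si:ch211-260p9.3, with 7 counts in all of RFP DMSO, the fitted value was -5.1 and depends on the prior count. That gene passed the filter through GFP-HRAS DMSO alone, which favours a negative value. Each of the 8 genes was called in 2 to 5 of the 12 fits that left out 1 library.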

How the results depend on the processing

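The interaction count of 8 was the same with RLE size factors. It was 125 with library totals (4 higher, 121 lower), 26 with no filter, 18 with a stricter filter, 510 with DESeq2, 1157 with voom and quality weights, 0 with robust edgeR or voom without weights, and 79 at an adjusted p under 0.10 (these last 3 settings were chosen after seeing the data); leaving out 1 library gave 0 to 81. For rapamycin in GFP-HRAS (1947) the counts were 3472 with library totals (254 higher, 3218 lower), 3126 with DESeq2, 4297 with voom and quality weights, 3336 at an adjusted p under 0.10 and 533 to 2305 with 1 library left out. For rapamycin in RFP (0) they were 26, 11 and 0 to 2 for DESeq2, voom with quality weights and 1 library left out. The HRAS effect in DMSO (7621) stayed within 1.5 times (5793 to 8353 with 1 library left out), with a split of 6084 higher to 1812 lower with library totals. The HRAS effect in rapamycin (2909) was 7118 with voom and quality weights, 4666 at an adjusted p under 0.10 and 881 to 4864 with 1 library left out (1686 and 881 without RFP rapamycin replicates 1 and 2; 1008, 989 and 4864 without GFP-HRAS rapamycin replicates 1, 2 and 3), and its split of 1672 higher to 1237 lower was 1960 to 916 with library totals. With a replicate block the interaction had 44 calls and rapamycin in GFP-HRAS 1271. Deviations of same-numbered libraries correlated at -0.34 to 0.17, over 0.1 in 2 of 18 pairs. Deviations from means of 3 libraries cannot exclude a batch shared by number, so whether the numbers pair the libraries is not known. The interaction of nppb changed sign, to -0.11 with library totals, -0.0898 with the replicate block and between -0.35 and 0.71 with 1 library left out; the cause was not tested. Library totals also took the median interaction of the cardiac transcription factor (-0.01), sarcomere (-0.01) and calcium handling (-0.13) lists below 0, and those of the glycolysis, erythrocyte, TOR and ribosome biogenesis lists, as the median of all genes went to -0.34. With 3 libraries a group, the median SE of 0.484 limits what can be called.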
